A study of Arabidopsis thaliana with 11 samples.

Results

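The PYR/PYL proteins are the soluble receptors of the stress hormone abscisic acid (ABA), and 9 of their genes were followed here in guard cells of salt-treated Arabidopsis. The members were PYR1 (AT4G17870), PYL1 (AT5G46790), PYL2 (AT2G26040), PYL4 (AT2G38310), PYL5 (AT5G05440), PYL6 (AT2G40330), PYL7 (AT4G01026), PYL8 (AT5G53160) and PYL9 (AT1G01360). They were taken by locus from the table of normalised values that the authors deposited, where they are 9 of 28718 loci. All 9 had a probe on the array and all 9 were well above background on each of the 11 arrays, so no member was lost to the filter on dim genes. The members were named by locus and not by a threshold on measured values, but with earlier results of these data known. They leave out 5 other receptors of the family, of which 0 passed that filter.

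An ABA-bound receptor closes over the hormone and docks onto a clade A protein phosphatase 2C (PP2C), blocking its active site. SnRK2 kinases such as OST1 are then free to phosphorylate anion channels in the guard cell, the cell that opens and closes the stomatal pore, and the ABF and ABI5 transcription factors in the nucleus. The family falls into dimeric receptors (PYR1, PYL1 and PYL2), which pair up in the absence of ABA and need the hormone to come apart, and monomeric receptors (PYL4 to PYL9), which can bind some PP2Cs without it. Among the monomeric receptors, PYL4, PYL5 and PYL6 form one subfamily and PYL7, PYL8 and PYL9 another.

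All plants were Arabidopsis thaliana Columbia-0, wild type in every group, grown in soil under 12 h of light per day, at 22 °C by day and at 16 °C by night. Treatment began at 4 to 5 weeks of age. Pots of the 3x salt group stood for 2 h each time in 75 mM NaCl on days 1 and 2, in 150 mM on days 7 and 8, and in 200 mM on days 13 and 14 (4 samples). Pots of the 1x salt group had the 200 mM round on days 13 and 14 alone (3 samples), and those of the no-salt group had tap water in place of salt (4 samples). Guard-cell-enriched material of every group was taken on day 15, after 4 h of light, when the labels give an age of 6 to 7 weeks. From each sample, 100 ng of RNA was labelled with Cy3 and hybridised to its own 1-colour Agilent array. Whether the samples within a group are separate plants or preparations is not in the labels, so p-values measure only how these samples spread, and that spread may be technical.

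On each array, 66.24% to 80.25% of the 43803 non-control spots were well above background. Array 3 of 1x salt had 442 outlier spots, and the other arrays had 9 to 38. Arrays within the salt groups were not evenly spaced. Over all 23458 genes tested, the SD of the log2 difference was 0.334 between 3x salt arrays 1 and 2 and 0.332 between arrays 3 and 4, but 0.514 to 0.560 across these pairs. Array 1 of 1x salt stood apart from arrays 2 and 3 of its group (SD 0.610 and 0.686, against 0.457 between arrays 2 and 3), and no-salt arrays 2, 3 and 4 lay within 0.300 to 0.329 of each other. The arrays lay on 6 slides, and the 3x salt arrays 1 to 4 were on slides 1, 3, 5 and 6, so neither close pair shared a slide.

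The guard cell label was set against its markers. All 11 guard cell markers, among them the regulator MYB60 and the potassium channel KAT1, were well above background on every array. Of these 11, 7 were lower and 1 higher in 3x salt than in no salt, and 3 were higher in 1x salt than in no salt, a count that ran from 0 to 3 when 1 array was left out. The marker that was higher in 3x salt was GORK (1.40, limma adjusted p = 0.000167). Of all genes tested, 27.9% were higher and 23.6% lower in 3x salt than in no salt. In 1x salt 9.21% were higher and 7.68% lower than in no salt. Markers of other tissues were present too. All 5 mesophyll markers were lower in 3x salt than in no salt. Of 6 pavement cell and trichome markers tested, 1 was higher and 4 lower in 3x salt than in no salt, and 2 were higher and 1 lower in 1x salt than in no salt. Of 13 vascular markers, 10 were higher in 1x salt than in no salt, and the list's mean level relative to no salt was 0.30, 0.41, -0.10 and -0.10 on 3x salt arrays 1 to 4, 0.67 to 1.03 on 1x salt arrays, and -0.25 to 0.11 on no-salt arrays, on the log2 scale. In such bulk samples, fewer cells of a type and less RNA per cell cannot be told apart.

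Receptor levels are given below as the log2 processed signal of the gene's brightest probe minus the array's 75th percentile, so a level of 0 is that percentile, and differences are log2 differences of these levels. Levels of different genes come from different probes and are not compared. Calls are from limma, fitted over all 11 arrays and adjusted over 23458 genes, with an adjusted p below 0.05 as the threshold.

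**Figure D1:**
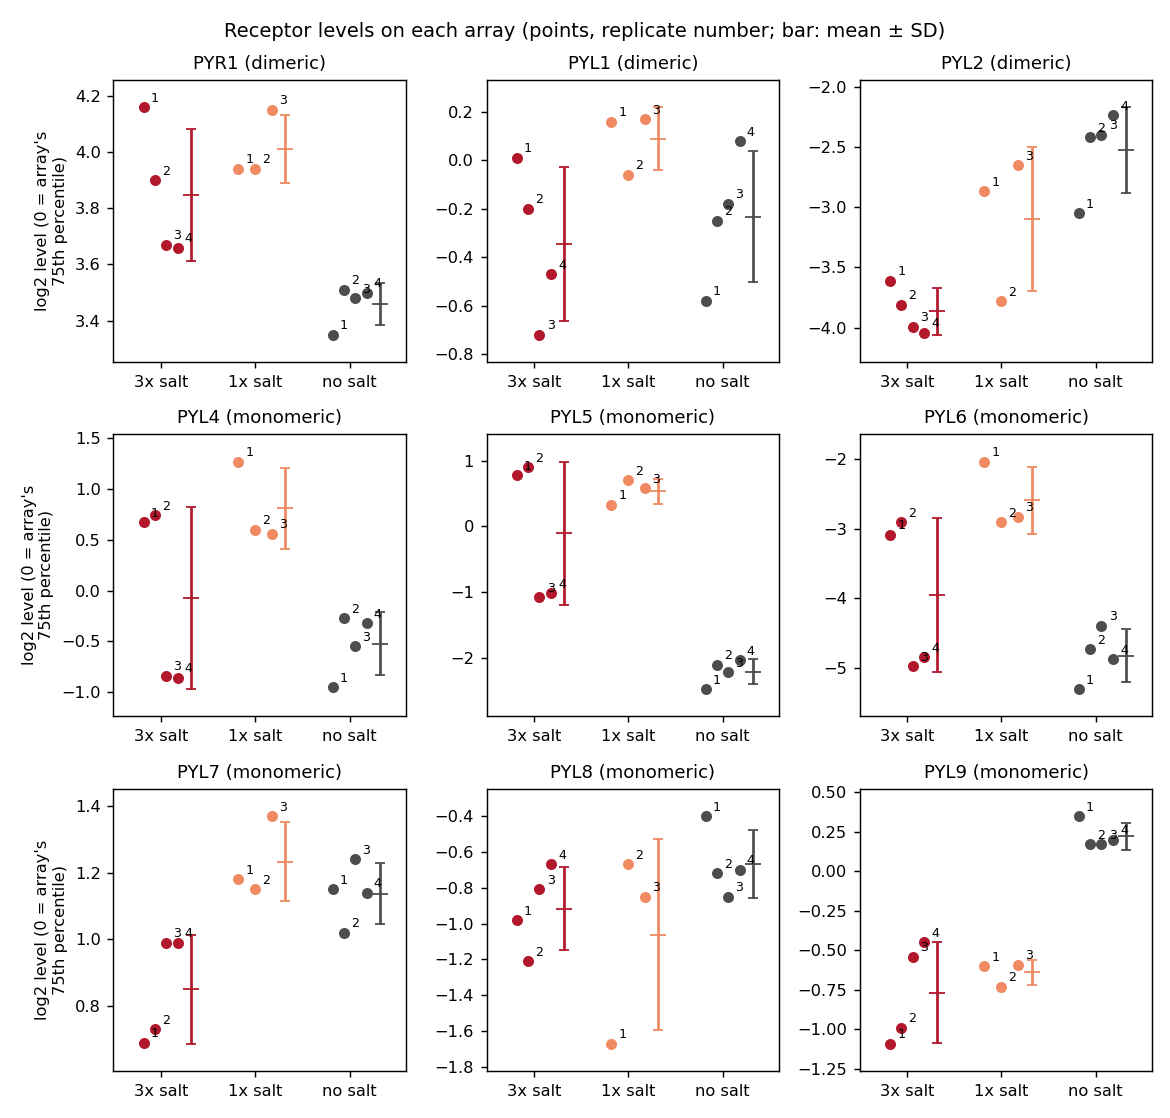
Level of each of the 9 receptors on each array (vertical axis, log2 units, 0 being the array's 75th percentile, with a range of its own in each panel), with 3x salt, 1x salt and no salt from left to right; points are arrays with their replicate number, and bars show the mean and SD of the group. PYL4, PYL5 and PYL6 stand high on 3x salt arrays 1 and 2 and on all 1x salt arrays, while PYL9 is lower on all salt arrays than on all no-salt arrays.

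After stepwise salt, receptor transcripts differed from no salt in both directions. In 3x salt against no salt, PYL5 and PYR1 rose, PYL2, PYL9 and PYL7 fell, and PYL1, PYL4, PYL6 and PYL8 did not pass. That is 5 of 9 members called, 2 higher and 3 lower, where 51.4% of all genes tested were called (27.9% higher and 23.6% lower). The share of members called was near that background. The same 5 members had arrays that did not overlap between the groups, against 51.7% of all genes. The median difference of the 9 members was -0.11, beside 0.04 over all genes. With slide as a random block the same 5 members were called. With the close arrays named above averaged, PYL9 alone was called, where 2218 of all genes tested were called. PYL5 (2.19, adjusted p = 0.0792), PYL2 (-1.16, adjusted p = 0.0625), PYR1 (0.42, adjusted p = 0.143) and PYL7 (-0.29, adjusted p = 0.205) then kept their direction. With slide as a fixed block PYL5 (2.23, adjusted p = 0.0319) and PYL9 (-1.06, adjusted p = 0.0193) were called, and PYR1, PYL2 and PYL7 kept their direction with adjusted p from 0.0667 to 0.0829. Slides 3 and 5 hold no other array than 3x salt arrays 2 and 3. With slide as a fixed block, here and below, the 3x salt values thus rest on 3x salt arrays 1 and 4.

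After the single late round of salt, PYL5, PYL6 and PYR1 were higher and PYL9 was lower than in no salt. In 1x salt against no salt, 4 of 9 members were called, 3 higher and 1 lower, where 16.9% of all genes tested were called (9.21% higher and 7.68% lower). Besides these 4, PYL4 also had 1x salt arrays that lay above every no-salt array, which makes 5 of 9 members without overlap, against 29.8% of all genes. The median difference of the members was 0.33, beside 0.04 over all genes. With slide as a random block PYL4 passed as well (1.31, adjusted p = 0.0435). With slide as a fixed block PYL5 alone was called (2.59, adjusted p = 0.0497), and PYR1, PYL6 and PYL9 kept their direction with adjusted p from 0.065 to 0.114. With close arrays averaged no member was called, where 2 of all genes tested were called. PYL5 (2.77, adjusted p = 0.204), PYL6 (2.53, adjusted p = 0.242), PYR1 (0.57, adjusted p = 0.256) and PYL9 (-0.89, adjusted p = 0.213) then kept their direction.

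Between the salt regimes, PYL2 and PYL7 were lower in 3x salt than in 1x salt. With limma 0 receptors were higher, also at an unadjusted p under 0.05. These 2 of 9 members stand beside 38.8% of all genes called in this comparison, of which 19.8% were higher and 19% lower. PYL6 and PYL7 had arrays that did not overlap, against 42.1% of all genes. The median difference of the members was -0.44, beside 0.01 over all genes. With slide as a fixed block neither PYL2 (-0.74, adjusted p = 0.313) nor PYL7 (-0.42, adjusted p = 0.0799) passed. Nor did PYL2 (-0.82, adjusted p = 0.135) or PYL7 (-0.37, adjusted p = 0.157) with close arrays averaged, where 511 of all genes tested were called. The 3 comparisons share their arrays, so they are not independent of one another.

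**Figure D2:**
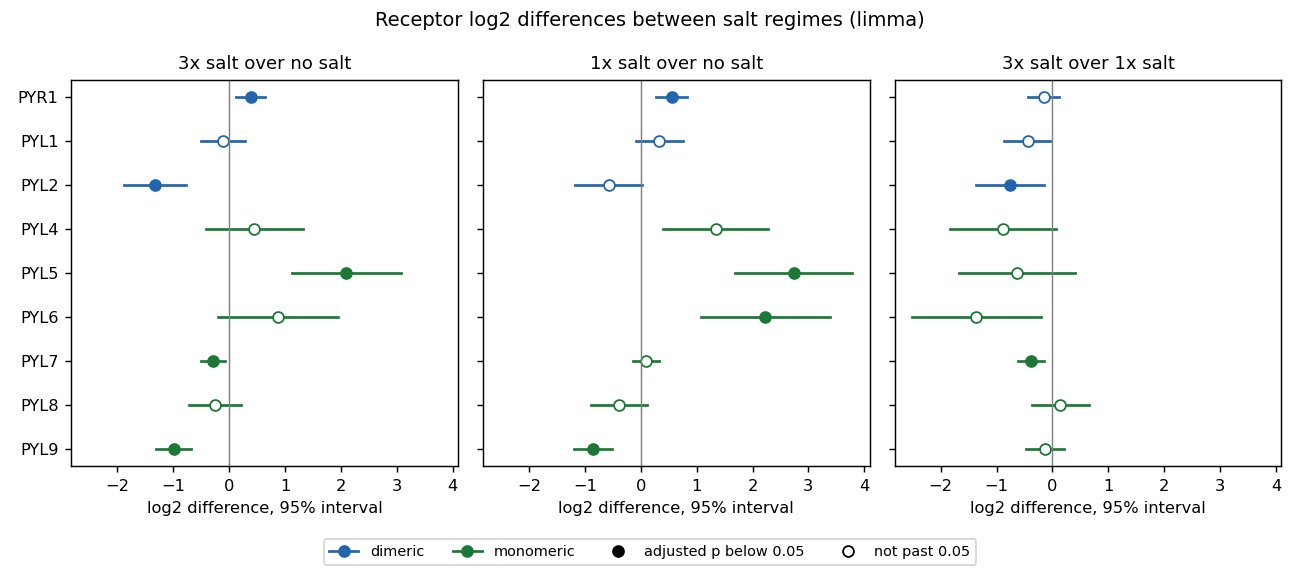
Log2 difference of each receptor (horizontal axis) in 3 comparisons, with 95% confidence intervals from limma; blue marks dimeric and green monomeric receptors, and filled points have an adjusted p below 0.05. PYL5 is the farthest to the right in both comparisons with no salt, PYL2 and PYL9 lie to the left of 0, and the intervals of PYL4, PYL5 and PYL6 are the widest.

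The dimeric receptors moved in different directions. Of the 3, 1 rose (PYR1) and 1 fell (PYL2) in 3x salt against no salt, with a median difference of -0.11. In 1x salt against no salt 1 rose and 2 did not pass (median 0.33), and in 3x salt against 1x salt 1 fell (median -0.44). Of all genes, 27.9% were higher and 23.6% lower in 3x salt than in no salt, and 9.21% were higher in 1x salt. Between the regimes 19% were lower in 3x salt. Counts this small are not read as a trait of the subfamily.

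PYR1, the receptor first found through resistance to the synthetic agonist pyrabactin, had levels of 4.16, 3.90, 3.67 and 3.66 in 3x salt, 3.94, 3.94 and 4.15 in 1x salt, and 3.35, 3.51, 3.48 and 3.50 in no salt. All 7 salt arrays thus lay above all 4 no-salt arrays. The difference was 0.39 in 3x salt (SE 0.11, limma adjusted p = 0.0165), a 1.31-fold rise, and 0.55 in 1x salt (SE 0.12, adjusted p = 0.0148), a 1.46-fold rise. The 3x salt rise was carried more by arrays 1 and 2: without them it was 0.21 (adjusted p = 0.0974), and without arrays 3 and 4 it was 0.57 (adjusted p = 0.00413). The 1x salt call ended without 1x salt array 3 (0.48, adjusted p = 0.062), with the authors' deposited table (0.45, adjusted p = 0.0541), with normexp background correction (0.60, adjusted p = 0.0582) and with a replicate block (0.52, adjusted p = 0.0561). On the slides that hold both groups, the 3x salt difference was 0.81 and 0.16 (slides 1 and 6), and the 1x salt difference was 0.59, 0.43 and 0.67 (slides 1, 2 and 4).

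PYL2, which has been found sufficient for ABA-induced stomatal closure when it is the receptor left in guard cells, was the receptor with the largest fall in 3x salt against no salt. Levels of PYL2 were -3.61, -3.81, -3.99 and -4.04 in 3x salt, -2.87, -3.78 and -2.65 in 1x salt, and -3.05, -2.42, -2.40 and -2.24 in no salt. The 3x salt arrays lay below all no-salt arrays, while the 1x salt arrays spread over both ranges, with array 2 among the 3x salt values. PYL2 fell by 1.33 in 3x salt against no salt (SE 0.25, adjusted p = 0.00163), a 2.52-fold fall. This fall held without 3x salt arrays 1 and 2 (-1.48, adjusted p = 0.00838) and without arrays 3 and 4 (-1.18, adjusted p = 0.0215), and it was -0.56 and -1.80 within slides 1 and 6. The fall did not pass with close arrays averaged (-1.16, adjusted p = 0.0625). In 1x salt the difference from no salt was -0.57 (SE 0.27, adjusted p = 0.182), with 0.18, -1.36 and -0.25 within slides 1, 2 and 4. The difference between the regimes, 3x salt minus 1x salt, was -0.76 (SE 0.27, adjusted p = 0.0486), and it was -0.74 on slide 1, the slide that holds both. That call lay close to the threshold: it ended without any 1 of the 4 3x salt arrays, of 1x salt arrays 1 and 3, or of no-salt arrays 2, 3 and 4 (adjusted p from 0.053 to 0.166).

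PYL1, the third dimeric receptor, stayed within overlapping ranges. Its levels were 0.01, -0.20, -0.72 and -0.47 in 3x salt, 0.16, -0.06 and 0.17 in 1x salt, and -0.58, -0.25, -0.18 and 0.08 in no salt. The difference from no salt was -0.11 in 3x salt (95% interval -0.50 to 0.28, adjusted p = 0.618) and 0.33 in 1x salt (-0.09 to 0.75, adjusted p = 0.274). Without 3x salt array 3, the 3x salt difference was 0.01. Between 3x and 1x salt it was -0.44 (SE 0.19, adjusted p = 0.0915), and -0.55 with an adjusted p of 0.0412 without 3x salt array 1.

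Among the 6 monomeric receptors, PYL5 rose in both regimes and PYL6 in 1x salt, while PYL9 fell in both regimes and PYL7 in 3x salt. In 3x salt against no salt 1 of the 6 rose and 2 fell (median 0.10). In 1x salt 2 rose and 1 fell (median 0.72), and in 3x against 1x salt 1 fell (median -0.51). The shares of all genes were 27.9% higher and 23.6% lower in 3x salt, and 9.21% higher and 7.68% lower in 1x salt. Between the regimes 19% were lower in 3x salt. These counts too are not read as a trait of the subfamily.

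PYL5 had the largest rise of any receptor in both regimes against no salt. PYL5 has been reported to take part, with PYL4, in stomatal closure by CO2, and plants with extra PYL5 to resist drought. Its levels were 0.78, 0.90, -1.07 and -1.01 in 3x salt, 0.33, 0.70 and 0.58 in 1x salt, and -2.47, -2.10, -2.21 and -2.03 in no salt. Every salt array lay above every no-salt array, and 3x salt arrays 3 and 4 lay between the no-salt arrays and the other salt arrays.

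In 1x salt PYL5 rose by 2.74 over no salt (SE 0.47, 95% interval 1.69 to 3.78, adjusted p = 0.00451), which is 6.67-fold and ranks 78 of 23458 genes by size of difference. Within slides 1, 2 and 4 this rise was 2.80, 2.80 and 2.79. With close arrays averaged PYL5 kept the size of its 1x salt rise but not the call (2.77, adjusted p = 0.204). In 3x salt PYL5 rose by 2.10 (SE 0.43, 95% interval 1.13 to 3.07, adjusted p = 0.00271), which is 4.29-fold and ranks 680. Here the size depended on the arrays: it was 3.04 without 3x salt arrays 3 and 4 (adjusted p = 2.37e-05), 1.16 without arrays 1 and 2 (adjusted p = 0.000901), and 3.24 and 1.02 within slides 1 and 6. The difference between 3x and 1x salt was -0.64 (95% interval -1.68 to 0.40, adjusted p = 0.309). It was -1.57 without 3x salt arrays 1 and 2 (adjusted p = 0.000394) and 0.30 without arrays 3 and 4 (adjusted p = 0.19).

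PYL5 was measured by 3 probes. The other probes gave rises of 2.22 and 2.34 in 3x salt and of 2.69 and 3.14 in 1x salt over no salt. The dimmest of them was not well above background on any no-salt array, so its rise has no exact size. All 3 probes placed 3x salt arrays 3 and 4 below arrays 1 and 2.

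PYL6, which is known to interact with the jasmonate regulator MYC2, had levels of -3.09, -2.91, -4.97 and -4.84 in 3x salt, -2.04, -2.91 and -2.83 in 1x salt, and -5.30, -4.73, -4.39 and -4.87 in no salt. The 1x salt arrays and 3x salt arrays 1 and 2 lay above all no-salt arrays, while 3x salt arrays 3 and 4 lay within the no-salt range. PYL6 rose by 2.23 in 1x salt (SE 0.52, adjusted p = 0.0171), which is 4.69-fold and ranks 201, with 3.26, 1.82 and 1.55 within slides 1, 2 and 4. With normexp background correction in place of the scanner's processed signal the 1x salt difference was 0.99 (adjusted p = 0.445). In 3x salt the difference was 0.87 (SE 0.48, 95% interval -0.20 to 1.94, adjusted p = 0.156), with 2.21 and 0.04 within slides 1 and 6. It was -0.08 without 3x salt arrays 1 and 2 (adjusted p = 0.844) and 1.82 without arrays 3 and 4 (adjusted p = 0.00235).

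PYL6 also differed between the regimes in part of the settings. The difference of 3x salt from 1x salt was -1.36 (SE 0.52, adjusted p = 0.0616), with every 3x salt array below every 1x salt array, though array 2 by less than the rounding of the levels above. It passed without 3x salt array 1 (-1.65, adjusted p = 0.036) or array 2 (-1.71, adjusted p = 0.0239).

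PYL4, a receptor with a reported part in the CO2 response of stomata and in jasmonate crosstalk, followed the same order of arrays. PYL4 levels were 0.67, 0.74, -0.84 and -0.86 in 3x salt, 1.27, 0.60 and 0.56 in 1x salt, and -0.95, -0.27, -0.55 and -0.32 in no salt. Again 3x salt arrays 1 and 2 stood with 1x salt and arrays 3 and 4 with no salt. The 1x salt difference was 1.34 (SE 0.42, 95% interval 0.39 to 2.28, adjusted p = 0.0567), a 2.52-fold difference that missed the threshold, with 2.22, 0.88 and 1.11 within slides 1, 2 and 4. It passed when any 1 of the 3x salt arrays was left out of the shared estimate of the spread (adjusted p from 0.043 to 0.0485). The 3x salt difference was 0.45 (SE 0.39, adjusted p = 0.364), with 1.62 and -0.54 within slides 1 and 6. It was -0.33 without 3x salt arrays 1 and 2 (adjusted p = 0.309) and 1.23 without arrays 3 and 4 (adjusted p = 0.00547).

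For each of the 9 receptors, 3x salt arrays 1 and 2 lay on one side of arrays 3 and 4, so that split was not confined to PYL4, PYL5 and PYL6. Over all genes tested, the 3x salt arrays fell into the same pairs, as given above. The share of all genes with this split was not counted, so the split is not read as a trait of the receptors. Without 3x salt arrays 1 and 2, the 3x salt comparison with no salt called 3 of 9 members (PYL5 higher, PYL2 and PYL9 lower), where 44.3% of all genes were called (23.2% higher and 21.1% lower). In the same setting 3x against 1x salt called 5, all lower, where 35.1% of all genes were called and 18.4% were lower. Without arrays 3 and 4, the comparison with no salt called 7 of 9 members, 4 higher and 3 lower, where 44.1% of all genes were called (24.4% higher and 19.8% lower). By its mean, the vascular marker list stood higher on 3x salt arrays 1 and 2 than on arrays 3 and 4, as given above. So did the guard cell list (mean levels relative to no salt of -0.37, -0.48, -0.65 and -0.76 on 3x salt arrays 1 to 4) and the mesophyll list (-1.02, -1.13, -1.25 and -1.25). The pavement cell and trichome list did not (-0.42, -0.39, -0.27 and -0.39). Not every marker followed its list's mean. Among vascular markers, XCP2 had levels of -0.17, 0.05, -0.87 and -0.99 on these arrays, but SUC2 had 4.46, 4.39, 4.52 and 4.47. Among guard cell markers, GC1 had 0.95, 1.20, -0.10 and -0.22, but CYP86A2 had 3.50, 3.40, 3.96 and 3.81. The part of these lists in the receptor values was not tested. Clade A PP2C genes had mean levels relative to no salt of 1.29, 1.12, 1.45 and 1.48 on the same arrays, lower on arrays 1 and 2.

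PYL9 was lower in both salt regimes than in no salt. PYL9 is known for promoting drought resistance and leaf senescence when overproduced, and for a part in ABA control of lateral roots. Its levels were -1.09, -0.99, -0.54 and -0.45 in 3x salt, -0.60, -0.73 and -0.59 in 1x salt, and 0.35, 0.17, 0.17 and 0.20 in no salt. All 7 salt arrays lay below all no-salt arrays. PYL9 fell by 0.99 in 3x salt (SE 0.14, adjusted p = 0.000313), a 1.99-fold fall, and by 0.86 in 1x salt (SE 0.15, adjusted p = 0.00513), a 1.81-fold fall. The values within slides 1 and 6 were -1.44 and -0.66 for 3x salt, and within slides 1, 2 and 4 they were -0.95, -0.89 and -0.75 for 1x salt. The 3x salt fall passed under all 24 alternative settings tried (-1.26 to -0.72). A second probe gave -1.17 in 3x salt and -0.85 in 1x salt. The difference between the regimes was -0.13 (95% interval -0.47 to 0.20, adjusted p = 0.523), with -0.49 on slide 1. It was 0.14 without 3x salt arrays 1 and 2 (adjusted p = 0.253) and -0.41 without arrays 3 and 4 (adjusted p = 0.0146).

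PYL7, a monomeric receptor of the same subfamily, changed little. The array levels were 0.69, 0.73, 0.99 and 0.99 in 3x salt, 1.18, 1.15 and 1.37 in 1x salt, and 1.15, 1.02, 1.24 and 1.14 in no salt. The 3x salt arrays lay below every other array, though arrays 3 and 4 by a small margin. PYL7 fell by 0.29 in 3x salt against no salt (SE 0.10, adjusted p = 0.0271), a 1.22-fold fall, with -0.46 and -0.15 within slides 1 and 6. In 1x salt the difference was 0.09 (95% interval -0.14 to 0.32, adjusted p = 0.588). The difference between the regimes was -0.38 (SE 0.10, adjusted p = 0.015), and a second probe gave -0.35, 0.17 and -0.52 in these 3 comparisons. The call against no salt ended in 11 of 24 alternative settings. These include the authors' deposited table (adjusted p = 0.0845), normexp (adjusted p = 0.188), no filter on dim genes (adjusted p = 0.056), and the removal of no-salt array 1, 3 or 4 or of 3x salt array 1 or 2 alone (adjusted p from 0.0533 to 0.0765). Without 3x salt arrays 1 and 2 together the difference was -0.15 (adjusted p = 0.229), and the call against 1x salt ended without 1x salt array 3 (-0.32, adjusted p = 0.0535).

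**Figure D3:**
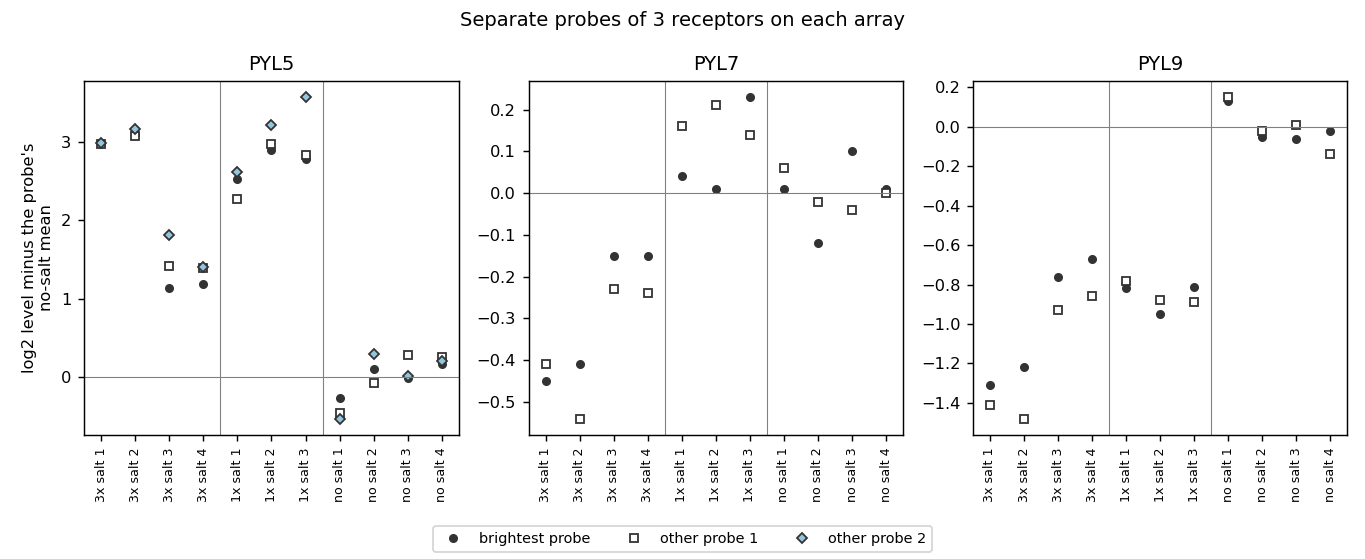
Separate probes of PYL5, PYL7 and PYL9 on each array (horizontal axis, 3x salt, 1x salt and no salt from left to right), as the log2 level minus that probe's own no-salt mean; the panels differ in their vertical range. The probes of each receptor order the group means alike, and the PYL5 probes all place 3x salt arrays 3 and 4 below arrays 1 and 2.

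PYL8, which acts in the recovery of lateral root growth under ABA, passed in no comparison. Its levels were -0.98, -1.21, -0.81 and -0.67 in 3x salt, -1.67, -0.67 and -0.85 in 1x salt, and -0.40, -0.72, -0.85 and -0.70 in no salt. The groups overlapped, and 1x salt array 1 was the lowest of all. The difference from no salt was -0.25 in 3x salt (95% interval -0.72 to 0.22, adjusted p = 0.341) and -0.39 in 1x salt (-0.90 to 0.11, adjusted p = 0.272). Between 3x and 1x salt it was 0.14 (adjusted p = 0.651), and -0.16 without 1x salt array 1 (adjusted p = 0.495).

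The array also held probes for 5 other receptors of the family, PYL3, PYL10, PYL11, PYL12 and PYL13, and 0 of these 5 passed the filter on dim genes. PYL3 was well above background on 1 array (1x salt array 3) and PYL10 on 1 array (no-salt array 2). PYL11, PYL12 and PYL13 were not well above background on any array, so no difference is given for them.

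The genes that work with the receptors were followed from lists of known pathway members. Of the PP2Cs, the direct targets of the receptors, 6 of 9 rose and 3 did not pass in 3x salt against no salt, where 27.9% of all genes rose, with a median of 0.81 beside 0.04 over all genes. AHG1 and HAI3, among these 6, passed the filter on dim genes only through salt arrays, so their calls are not independent of that filter. In 1x salt 2 rose and 1 fell (median 0.07), beside 9.21% and 7.68% of all genes. In 3x salt 6 of 9 were higher than in 1x salt (median 0.83), HAI3 again among them, beside 19.8% of all genes. By mean level relative to no salt, the 1x salt arrays ran from -0.05 on array 1 to 0.48 and 0.91 on arrays 2 and 3.

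HAI1 (AT5G59220), a PP2C strongly induced by ABA, had levels of 2.01, 1.79, 2.17 and 2.25 in 3x salt, 0.18, 1.11 and 1.29 in 1x salt, and -0.81, -0.38, -0.44 and -0.26 in no salt. These groups did not overlap, and HAI1 rose by 2.53 in 3x salt (adjusted p = 3.1e-05) and by 1.33 in 1x salt (adjusted p = 0.00669). AHG1 (AT5G51760), a PP2C that resists inhibition by most receptors, did not reach well above background on any no-salt array and was tested on the strength of the salt arrays. Set against its own no-salt signal, the level of AHG1 in 3x salt arrays was higher by 12.6-fold, and that in 1x salt, where 2 of 3 arrays measured it, by 4.68-fold. Since that no-salt signal was not well above background, these folds have no exact size and are not lower bounds. The place of AHG1 in the PP2C counts rests on that dim no-salt signal. HAI3 (AT2G29380) was well above background on 1 of 4 no-salt arrays, 1 of 3 1x salt arrays and 4 of 4 3x salt arrays. It thus passed the filter through the 3x salt arrays. ABI2 (AT5G57050) rose by 0.81 in 3x salt (adjusted p = 0.000783), and HAB2 (AT1G17550) fell by 0.47 in 1x salt (adjusted p = 0.00799). HAB1 (AT1G72770) was 0.83 higher in 3x salt than in 1x salt.

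Of the 3 SnRK2 kinases, which the PP2Cs hold inactive, SNRK2.2 (AT3G50500) rose by 0.35 in 3x salt (adjusted p = 0.00788) and 0 passed in 1x salt with limma (1 at an unadjusted p under 0.05), while OST1 (AT4G33950), the main kinase of stomatal closure, was 0.62 lower in 3x salt than in 1x salt on the log2 scale. The SnRK2 count between the regimes, 2 of 3, changed when any of 8 arrays was left out, and was 0 for 7 of them. Of 5 ABF and ABI5 factors, 1 rose and 1 fell in 3x salt, 1 fell in 1x salt, and 2 were higher and 1 lower in 3x than in 1x salt. Of all genes, 27.9% rose and 23.6% fell in 3x salt, and 7.68% fell in 1x salt. Between the regimes, 19.8% of all genes were higher and 19% lower in 3x salt. ABI5 (AT2G36270) rose by 0.91 and ABF3 (AT4G34000) fell by 0.88 in 3x salt (adjusted p = 0.000344 and 0.000226). ABF1 (AT1G49720) fell by 0.37 in 1x salt (adjusted p = 0.00649).

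Among genes that bring receptors to the membrane or mark them for turnover, 1 of 11 tested rose and 3 fell in 3x salt. Of all genes, 27.9% rose and 23.6% fell there. In 1x salt 1 rose and 1 fell, beside 9.21% and 7.68% of all genes. CAR1 (AT5G37740), a calcium-dependent membrane-binding partner of the receptors, rose by 0.83 in 3x salt (adjusted p = 7.17e-05) and by 0.57 in 1x salt (adjusted p = 0.00427). PUB22 (AT3G52450), an E3 ubiquitin ligase that marks receptors including PYL9 for degradation, had levels of -2.95, -2.80, -2.63 and -2.74 in 3x salt, -1.51, -2.11 and -1.98 in 1x salt, and -1.65, -1.10, -1.14 and -1.09 in no salt. PUB22 fell by 1.53 in 3x salt (adjusted p = 6.46e-05) and by 0.62 in 1x salt (adjusted p = 0.038), and its close relative PUB23 (AT2G35930) fell by 2.29 in 3x salt (adjusted p = 0.000253). The list's 1x salt count was 1 in place of 2 when any of 7 arrays was left out. Touch and wound genes were lower beside them, 8 of 10 in 3x salt and 7 of 10 in 1x salt. Of all genes, 23.6% and 7.68% were lower. The touch and wound genes had mean levels relative to no salt of -1.60 to -1.50 on 3x salt arrays, -1.69 to -0.93 on 1x salt arrays and -0.44 to 0.18 on no-salt arrays. Their part was not tested.

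Of 4 ABA transporters, the importer ABCG40 (AT1G15520) fell by 1.53 in 3x salt (adjusted p = 0.0334) and fell by 1.87 in 1x salt (adjusted p = 0.049). The 3x salt call of this list ended when no-salt array 1 was left out, and likewise for 3x salt arrays 1 and 2. NPF4.6 (AT1G69850), another importer, rose by 0.46 in 1x salt (adjusted p = 0.0125), and the 1x salt count of 2 was 1 when any of 10 arrays was left out. Of all genes, 23.6% were lower in 3x salt than in no salt. In 1x salt 9.21% were higher and 7.68% lower than in no salt.

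Transcripts that ABA is known to induce were measured beside the receptors. Of 10 such markers, 6 rose and 1 fell in 3x salt against no salt (median 0.65), beside 27.9% and 23.6% of all genes. In 1x salt 2 rose and 1 fell (median 0.14), beside 9.21% and 7.68% of all genes. In 3x salt 5 were higher and 1 lower than in 1x salt, beside 19.8% and 19% of all genes. The dehydrin gene RAB18 (AT5G66400) had levels of 7.49, 7.28, 7.22 and 7.12 in 3x salt, 6.16, 6.55 and 6.52 in 1x salt, and 4.80, 5.25, 5.07 and 5.02 in no salt. The 3 groups of arrays did not overlap on this probe, the brightest of 4. On it RAB18 rose by 2.25 in 3x salt (adjusted p = 3.33e-06) and by 1.38 in 1x salt (adjusted p = 0.000366). Another bright probe gave 0.98 in 3x salt and 0.17 in 1x salt, where its arrays overlapped those of no salt. The remaining probes gave 3.08 and 3.06 in 3x salt, and 1.53 and 1.52 in 1x salt. HB7 (AT2G46680), a homeodomain factor induced by ABA, rose by 1.33 in 3x salt (adjusted p = 8.2e-06). Its relative HB12 (AT3G61890) rose by 0.49 in 3x salt (adjusted p = 0.0163) and fell by 0.65 in 1x salt (adjusted p = 0.0186).

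**Figure D4:**
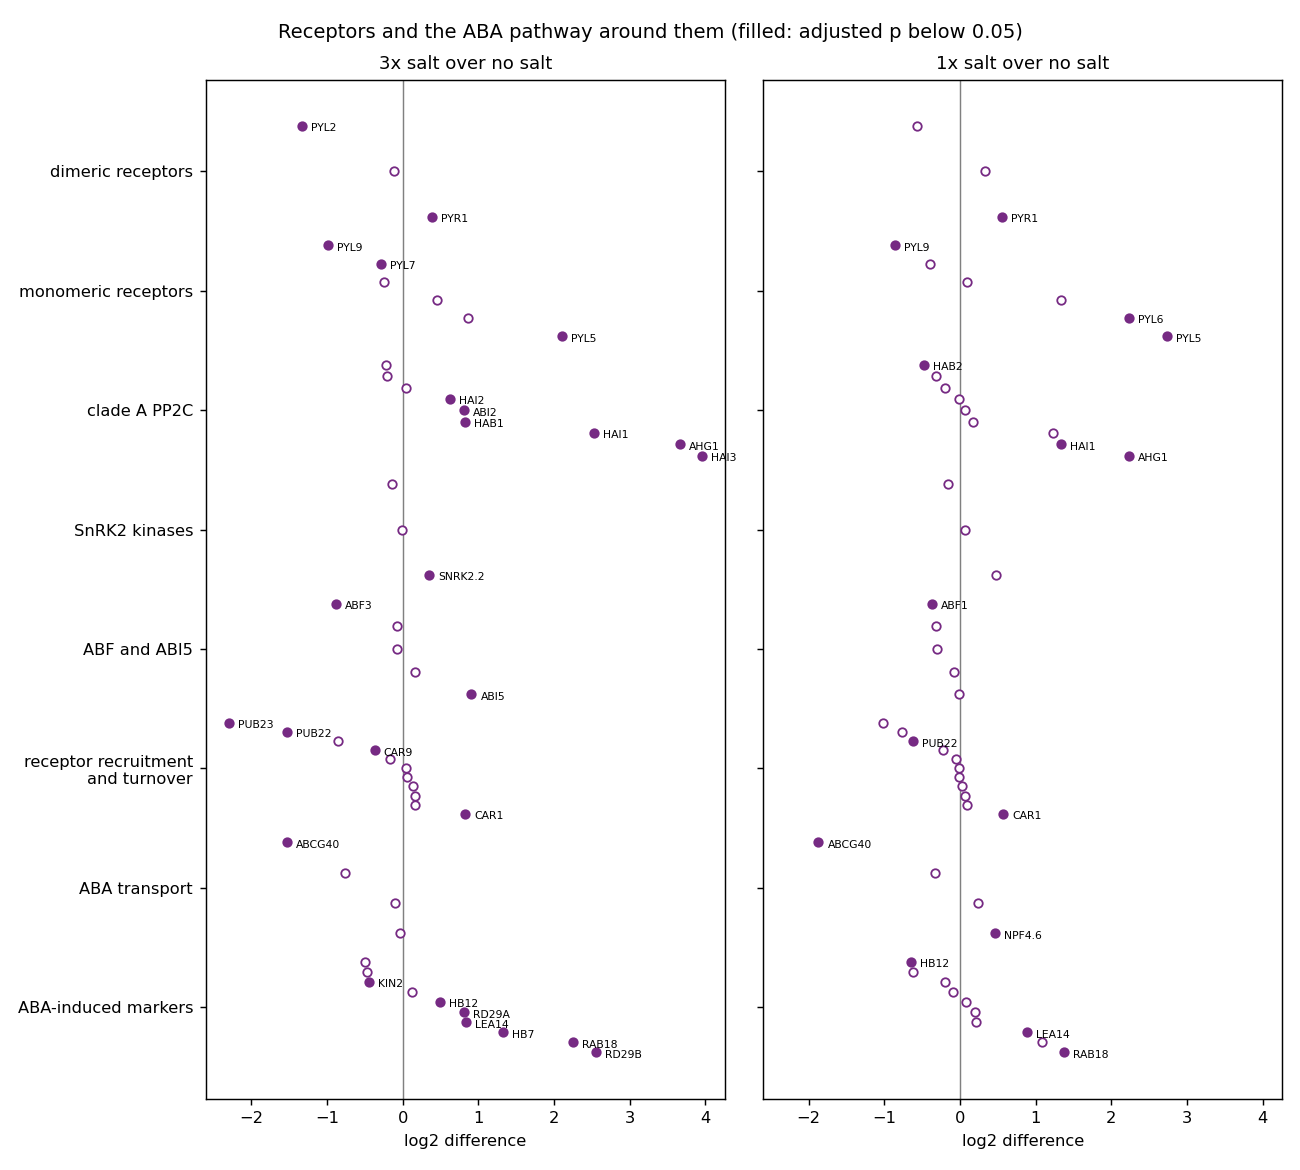
Log2 differences (horizontal axis) of the receptors and of genes that act with them, by list, in 3x salt over no salt and 1x salt over no salt; each point is a gene, and filled, named points have an adjusted p below 0.05. Receptors lie on both sides of 0 in both panels, while 6 of 9 PP2C genes and 6 of 10 ABA-induced markers lie to the right and pass in 3x salt. AHG1 was not above background in no salt and HAI3 was on 1 of 4 no-salt arrays, so their plotted positions rest on dim signal there. In 3x salt against no salt 27.9% of all genes were called higher.

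The genes whose pattern over the 11 arrays was most like that of PYL5 were AT4G16563 (Pearson r = 0.991), the E3 ubiquitin ligase gene SAUL1 (AT1G20780, r = 0.990) and the arabinogalactan protein gene AGP7 (AT5G65390, r = 0.990). Each of them showed the split of the 3x salt arrays, which follows from choosing them for their likeness to PYL5 over these arrays. AT4G16563 had levels of 1.72, 1.53, -0.73 and -0.71 in 3x salt, 1.32, 1.85 and 1.56 in 1x salt, and -1.78, -1.68, -1.71 and -1.64 in no salt. Those most like PYL2 were the cytochrome P450 gene CYP81F3 (AT4G37400, r = 0.961), AT2G25250 (r = 0.960) and NET4B (AT2G30500, r = 0.959). These correlations are descriptions over arrays that fall into 3 groups.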

How the data were processed

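Per the file headers, the scanner output is that of Agilent Feature Extraction 11.5.1.1. For each spot it holds a processed signal, an intensity that the software had already corrected for background and for a spatial trend, per the file headers. The authors also deposited a table of normalised values per locus, which are log2 values as judged from the scanner values (column medians 8.29 to 8.34). Each gene's mean over the 11 arrays was taken off both sets of values before arrays and columns were correlated across genes. These correlations of deviations were 0.79 to 0.93 for each array with its own column, against 0.22 to 0.85 for the closest other column. How the deposited table was normalised is not given in the sources used here. Its centring stays unknown. Its columns ran in the same direction as the scanner values, and it was used to choose the members and as an alternative.

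Levels are log2 of the processed signal less the 75th percentile of the array's non-control spots, without outlier spots. Of 43603 probes, 34348 were matched to 25410 loci through a RefSeq gene table of assembly TAIR10.1. No coordinates or sequences are given. The brightest probe stood for a gene, and 23458 of 34290 genes were tested, those that 3 or more of the 11 arrays showed well above background. One linear model over all arrays with a mean per group (8 residual degrees of freedom) was fitted by lmFit and eBayes of limma (version 3.58.1, R 4.3.3, with package data.table at version 1.17.8). P-values were adjusted per comparison by the Benjamini-Hochberg method. Every adjusted p comes from this test unless a setting is named. The folds of AHG1 set the brighter group's mean against, on each dim array, whichever is greater of that probe's signal and the lowest one that counts as well above background. They match the plain log2 differences from no salt (3.66 in 3x salt and 2.23 in 1x salt), so that lowest signal set no bound. Within-slide values are differences between the arrays of a slide. Figures used matplotlib 3.10.9, pandas 2.3.3 and python 3.11.15.

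Alternatives were the deposited table, normexp background correction (offset 50), quantile normalisation, other filters and probe summaries, other sets of arrays, slide or replicate number as a block, and averages of arrays that lie close together. The normexp setting was planned on the mean spot signal. The median spot signal and its median local background were used, since the files read here hold no mean. Leaving out 3x salt arrays 1 and 2, or 3 and 4, was chosen after seeing the data. Same-numbered samples deviated from their group means with correlations from -0.12 to 0.30, so the numbers were not taken to pair samples. The members, the gene lists and the choice of genes to name were made with earlier results of these data known. The text names every member, up to 3 genes of each other list with the smallest adjusted p in each comparison, and the 3 genes most like the receptor with the largest rise and the one with the largest fall in 3x salt against no salt. The number of arrays limits the precision.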

Additional observations from a re-analysis of the deposited data

Results flagged for a closer look

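PYL2 and PYL7 were marked because their effect against no salt differed between the regimes by a test of the difference itself, the limma contrast of 3x salt with 1x salt. For PYL2 the difference of the effects was -0.76, made of -1.33 in 3x salt and -0.57 in 1x salt (adjusted p = 0.0486). For PYL7 it was -0.38, made of -0.29 in 3x salt and 0.09 in 1x salt (adjusted p = 0.015). Both calls end when single arrays are left out, as given with their values in the report. In the 18 groups of 4 samples checked over the 9 members, no sample stood far enough from the other 3 to be marked.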

How the results depend on the processing

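Each member's difference was recomputed under 24 alternative settings per comparison, 216 values in each. Direction and side of the threshold were kept by 191 of them in 3x salt against no salt, 194 in 1x salt against no salt and 175 in 3x against 1x salt. The count of members called in 3x salt against no salt (5) was 2 with slide as a fixed block, 1 with close arrays averaged, 3 without 3x salt arrays 1 and 2, and 4 to 5 when 1 array was left out. In 1x salt against no salt (4) it was 2 with normexp, 1 with slide as a fixed block, 2 with a replicate block, 0 with close arrays averaged (by limma, when 2 of all genes tested were called) and 3 to 5 when 1 array was left out. In 3x against 1x salt (2) it was 1 with the deposited table, quantile normalisation, no filter, the 2 groups alone or a replicate block, 0 with normexp, slide as a fixed block or close arrays averaged, 5 without 3x salt arrays 1 and 2, and 0 to 3 when 1 array was left out. The replicate block left the 3x salt count against no salt at 5.

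Directions turned for values that had not passed. PYL1 in 3x against no salt was 0.00 with close arrays averaged, 0.14 without 3x salt arrays 3 and 4, and -0.23 to 0.01 when 1 array was left out (0.01 without 3x salt array 3). PYL4 there was -0.33 and PYL6 -0.08 without 3x salt arrays 1 and 2, and PYL6 was -0.07 with normexp. In 3x against 1x salt PYR1 was 0.08 with the deposited table, 0.00 with quantile normalisation or slide as a fixed block and 0.02 without 3x salt arrays 3 and 4, PYL5 was 0.30 and PYL8 -0.03 without these 2 arrays, PYL8 ran from -0.16 (without 1x salt array 1) to 0.34 when 1 array was left out, and PYL9 was 0.14 without 3x salt arrays 1 and 2. The causes were not tested.

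Over all genes, 12067, 3962 and 9102 were called in the 3 comparisons (3x with no salt, 1x with no salt, 3x with 1x salt). With normexp they were 6624, 1084 and 3526, with slide as a fixed block 7972, 988 and 2783, and with close arrays averaged 2218, 2 and 511. The 1x salt count ran from 2277 to 5580 when 1 array was left out. Quantile normalisation split the calls of 3x against 1x salt into 5894 higher and 3642 lower, against 4652 and 4450. Normexp moved the median of all genes to -0.16 in 3x salt and -0.093 in 1x salt against no salt, from 0.037 and 0.035, so PYL7 at -0.27 there lay closer to that median. Leaving out the filter put it at -0.114 in 3x salt against no salt. All 9 members were well above background on all 11 arrays, while dim signal left the 5 other receptors of the family untested. PYL6 depended on the background correction all the same (0.99 with normexp in 1x salt against no salt, beside 2.23).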
